A study of Mus musculus with 10 samples.

Results

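The 6 interferon regulatory factor genes of the nCounter mouse immune panel, Irf1, Irf3, Irf4, Irf5, Irf7 and Irf8, were followed in hippocampal microglia of mouse pups. They were chosen by gene name and not by a cut on their values, though with earlier results of these data known. They are 6 of the 545 endogenous genes on the panel. The study sorted microglia from male Balbc pups at postnatal day 14, with 5 control pups (numbers 1, 18, 40, 52 and 69) and 5 pups given brief daily separation (BDS; numbers 11, 17, 24, 38 and 59). BDS took each pup from its dam for 15 min a day on a schedule running from postnatal day 1 to 21, so these pups were collected within it. How control litters were handled is not given in the sources used here. Every pup came from its own litter and was read in 1 lane, so the spread between lanes mixes differences between litters, pups and lanes. The labels name no transgene or drug.

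Interferon regulatory factors (IRFs) are transcription factors that share an N-terminal DNA-binding domain with a cluster of tryptophans and bind GAAA-containing sites in interferon and interferon-induced promoters. Irf3 and Irf7 are held in the cytoplasm until the kinases Tbk1 and Ikbke phosphorylate them downstream of nucleic acid sensors, and Irf5 is engaged downstream of Myd88, Irak4 and Ikbkb. Irf1 is itself induced by interferon-gamma. Irf8 works with the factor PU.1 in building the macrophage lineage, and mice without it have abnormal microglia, while Irf4 is its close relative in lymphocytes and some macrophages. In mouse spinal microglia after nerve injury, Irf8 has been placed upstream of Irf5.

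All 6 genes have an entry in RefSeq (assembly GRCm38.p6). They lie apart on chromosome 11 (Irf1, 53770014 to 53778374), chromosome 7 (Irf3, 44997648 to 45002848, and Irf7, 141263183 to 141266499), chromosome 13 (Irf4, 30749233 to 30766981), chromosome 6 (Irf5, 29526130 to 29541869) and chromosome 8 (Irf8, 120736358 to 120756694). The start regions of Irf1 and Irf8 are shown because they were the 2 members above the control mean in every BDS pup, as were 25.8% of the 283 genes tested. They were also chosen because both hold the letters TTCNNNGAA, the gamma-activated site of interferon-gamma signalling. Both traits were grounds for the choice, so their meeting in these 2 genes is not a result. The sequences cover the 250 bases before and 50 bases after the annotated start, from RefSeq, 5′ to 3′, on the plus strand of GRCm38.p6, and capitals mark TTCNNNGAA. Irf1 is chr11:53769764-53770063 and Irf8 is chr8:120736108-120736407.
Irf1: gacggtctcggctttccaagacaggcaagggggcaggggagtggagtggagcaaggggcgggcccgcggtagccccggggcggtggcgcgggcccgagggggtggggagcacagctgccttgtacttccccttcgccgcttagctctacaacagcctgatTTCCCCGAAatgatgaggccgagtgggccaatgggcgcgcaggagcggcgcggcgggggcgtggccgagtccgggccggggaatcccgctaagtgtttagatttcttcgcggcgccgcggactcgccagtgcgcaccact
Irf8: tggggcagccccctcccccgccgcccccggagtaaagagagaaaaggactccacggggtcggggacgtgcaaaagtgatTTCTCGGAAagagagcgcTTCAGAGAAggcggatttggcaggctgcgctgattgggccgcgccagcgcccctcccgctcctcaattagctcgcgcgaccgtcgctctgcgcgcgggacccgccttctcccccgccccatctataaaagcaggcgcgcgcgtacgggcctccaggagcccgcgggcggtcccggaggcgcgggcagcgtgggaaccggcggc
The Irf1 match starts 90 bases before the gene's start, and the Irf8 matches start 171 and 153 bases before it. The motif reads the same on both strands, and it was found in 2 of the 8 start windows that RefSeq gives for the 6 genes, against 8.29% of 32817 windows of all mouse genes and 12.8% of 507 windows of panel genes. The IRF site core (GAAA, any 2 bases, GAAA) and the composite PU.1-IRF site (GGAA, any 2 bases, GAAA) were searched on both strands. Neither had a match in those 8 windows. They were found in 3.43% and 2.72% of all windows and in 6.11% and 3.75% of windows of panel genes. For Irf5 and Irf7 the only window is not placed at the annotated start of the gene. A match is only a run of letters in its window.

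The deposited counts are counts of fluorescent barcodes per probe, after 5 rounds of PCR on the cDNA, so they are not independent molecules, and counts of different probes are not set against each other as levels. Endogenous counts per lane ran from 76237 in control 52 to 968930 in BDS 17, and housekeeping signal was higher in BDS lanes by 1.23 on the log2 scale (exact two-sided permutation p = 0.0873, n = 5 per group). Lane depth therefore moved with the groups. Normalized counts here are raw counts scaled to 6 housekeeping genes. All 11 microglia markers exceeded the lane limit (mean of the negative probes plus 2 SD) in 4 or more of the 10 lanes. Together they took 33.9% to 40.8% of endogenous counts in control lanes and 35.7% to 40.2% in BDS lanes. Single markers differed in both directions. Mean normalized counts in control and BDS pups were 12088 and 7786 for Cx3cr1 and 37417 and 25334 for Itgam. They were 9356 and 15822 for C1qa and 698 and 1245 for Ptprc. Of the 13 T cell markers 0 reached that bound, and of the 10 B and plasma cell markers 4 did (Cd79b, Blnk and Tnfrsf17 in 10 lanes, Tnfrsf13b in 9), while Ms4a1 and Pax5 exceeded the limit in 0 lanes. Of 8 neutrophil and monocyte markers 3 were present (Csf3r, Cd14 and Ccr2), of 5 endothelial markers 3 (Pecam1, Cd34 and Cdh5), of 8 NK cell markers 2 and of 7 dendritic cell markers 2, and the part of such cells in the results was not tested. In bulk samples such as these, fewer cells that express a gene and less RNA per cell cannot be told apart.

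Between BDS and control pups, 5 of the 6 genes had a higher estimate in BDS and Irf5 did not, but no member passed the test. The log2 fold changes (edgeR quasi-likelihood test) were 0.52 ± 0.26 for Irf3, 0.50 ± 0.27 for Irf8, 0.41 ± 0.19 for Irf1, 0.30 ± 0.29 for Irf7, 0.21 ± 0.33 for Irf4 and -0.02 ± 0.24 for Irf5 (SE, n = 5 per group). Their median was 0.36, where that of all 283 genes tested was 0.09 and 55.8% of genes had a higher estimate. Without BDS 17 the median of the 6 was 0.19. At an adjusted p under 0.05, 0 of 6 members and 0% of the 283 genes passed edgeR. At an unadjusted edgeR p under 0.05 the count was 0 of 6 members, against 28.3% of the 283 genes. DESeq2 at an adjusted p under 0.05 called 26 panel genes and 0 of the 6. Of the 80 panel genes at an unadjusted edgeR p under 0.05, 55 were higher and 25 lower in BDS. Scaling without Sdha gave its own set of 75 genes at that bound, with 26 higher and 49 lower. That scaling put the median of all genes at -0.09 and that of the 6 members at 0.18.

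**Figure D1:**
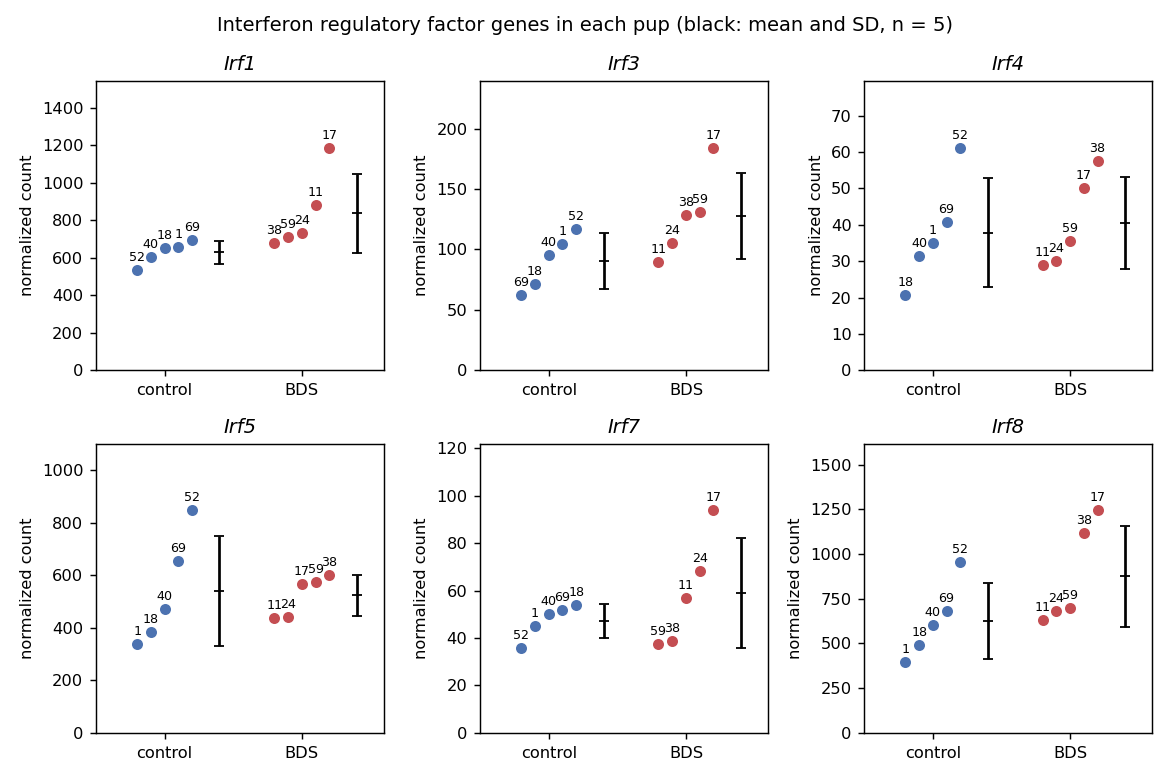
Normalized count (y axis, linear, from 0) of each interferon regulatory factor gene in each of 5 control and 5 BDS pups, labelled by pup number, with the mean and SD in black. In every panel the groups overlap, BDS 17 is the highest pup for Irf1, Irf3, Irf7 and Irf8, and control 52 is the highest for Irf4 and Irf5.

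Irf1 was the member with the tightest control group. Its normalized counts were 658, 654, 602, 535 and 695 in control pups 1, 18, 40, 52 and 69. They were 883, 1187, 733, 676 and 712 in BDS pups 11, 17, 24, 38 and 59. Thus 4 of 5 BDS pups stood above every control pup, and BDS 38 lay between control 1 and control 69. The means were 838 ± 210 in BDS and 629 ± 61.9 in control pups (SD, n = 5), a coefficient of variation of 25.1% against 9.84%. The log2 fold change of 0.41 had a 95% interval of -0.002 to 0.83 (edgeR adjusted p = 0.170), and it was 0.25 without BDS 17, the highest pup. An exact two-sided permutation test on log2 normalized counts gave p = 0.0159 for Irf1, where the smallest p the design allows is 0.00794, and 0.145 adjusted over the 283 genes. Scaled without Sdha, as the authors' deposited scores appear to be, the log2 fold change of Irf1 was 0.23 (edgeR adjusted p = 0.435).

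Irf8, the lineage factor, was also above the control mean in 5 of 5 BDS pups. This held for 2 of 6 members, Irf1 and Irf8, and for 25.8% of the 283 genes. Irf8 stood at 399, 493, 604, 954 and 682 normalized counts in control pups 1, 18, 40, 52 and 69. In BDS pups 11, 17, 24, 38 and 59 it stood at 633, 1243, 684, 1119.7 and 696. Only BDS 17 and BDS 38 exceeded all controls, because control 52, the shallowest lane, was the third highest of the 10. The means were 875 ± 284 and 626 ± 212 (SD, n = 5), with a log2 fold change of 0.50 and a 95% interval of -0.07 to 1.06 (edgeR adjusted p = 0.220). The estimate for Irf8 was 0.69 without control 52 (edgeR adjusted p = 0.0904), 0.81 without control 52 and control 69 (edgeR adjusted p = 0.102) and 0.67 with lane depth as a covariate (edgeR adjusted p = 0.370). It was 0.34 without BDS 17 and 0.29 with scaling without Sdha.

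Irf5, which drives inflammatory cytokine genes in macrophages, did not separate the groups. Its normalized counts were 339.8, 384, 471, 847 and 655 in control pups 1, 18, 40, 52 and 69. They were 439, 566, 441, 599 and 573 in BDS pups 11, 17, 24, 38 and 59, all within the control range. The means were 524 ± 77.3 in BDS and 539 ± 210 in control pups (SD, n = 5), so the control group had the wider spread (coefficient of variation 38.9% against 14.8%). The 95% interval of the log2 fold change ran from -0.55 to 0.50 (edgeR adjusted p = 0.959). The sign for Irf5 turned without control 52, at 0.19, and with lane depth as a covariate, at 0.33 (edgeR adjusted p = 0.491). Without control 52 and control 69, whose Irf5 values were the highest of all 10 pups and whose lanes were the shallowest, it was 0.39 (edgeR adjusted p = 0.185).

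Irf5 and Irf8 ranked the 5 control pups in the same order, lowest in pup 1, then 18, 40 and 69, and highest in pup 52. The ratio of 2 genes' raw counts within a lane does not depend on any lane scaling, so it was compared between groups for all 15 pairs of members. Irf5 over Irf8 is described because its p was the smallest of the 15, so the pair was picked by its outcome. Irf5 over Irf8 was 0.853, 0.779, 0.780, 0.888 and 0.960 in control pups 1, 18, 40, 52 and 69. It was 0.694, 0.455, 0.645, 0.535 and 0.824 in BDS pups 11, 17, 24, 38 and 59. In 4 of 5 BDS pups the ratio lay below every control pup, and BDS 59 alone lay within the control range. On the log2 scale the ratio was -0.70 ± 0.33 in BDS and -0.24 ± 0.13 in control pups (SD, n = 5), a difference of -0.46 (exact two-sided permutation p = 0.0238). Among the 15 pairs of members this was the 1 pair with p under 0.05, and over all 39903 pairs of present genes 21.5% had such a p. Adjusted over those pairs the p for Irf5 over Irf8 was 0.187, so the difference did not pass. It was between -0.56 and -0.35 with each pup left out, -0.46 after subtraction of the negative-control mean and -0.30 with lane depth regressed out.

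**Figure D2:**
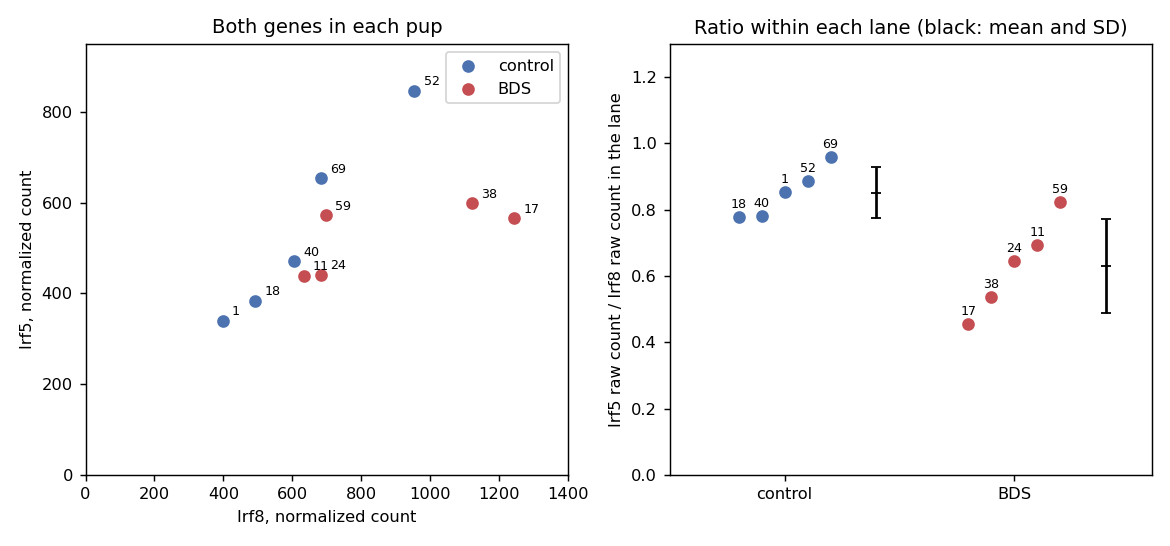
Left, normalized count of Irf5 (y axis) against that of Irf8 (x axis) in each pup, both axes linear from 0. Right, raw count of Irf5 over raw count of Irf8 in each lane with the mean and SD in black, where control pups lie between 0.779 and 0.960 and 4 of 5 BDS pups lie lower, between 0.455 and 0.694.

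The factors that Tbk1 phosphorylates, Irf3 and Irf7, gave 23 to 401 and 7 to 204 raw counts per lane. Irf3 stood at 105, 71.1, 95.7, 117 and 62.5 normalized counts in control pups 1, 18, 40, 52 and 69. In BDS pups 11, 17, 24, 38 and 59 it stood at 89.5, 184, 105, 128 and 131. The groups overlapped, with BDS 11 just below the control mean and 3 of 5 BDS pups above all controls. Irf3 averaged 128 ± 36.0 in BDS against 90.3 ± 23.0 in control pups (SD, n = 5), and the 95% interval of its log2 fold change ran from -0.03 to 1.07 (edgeR adjusted p = 0.190; exact two-sided permutation p = 0.0794). In control 52 its raw count of 23 was under that lane's negative-control limit of 24.4. With sample weights limma gave Irf3 a log2 fold change of 0.63 and an adjusted p of 0.0300, a setting under which 85 of the 283 genes passed. The estimate for Irf3 was 0.33 with scaling without Sdha (edgeR adjusted p = 0.404) and 0.35 without BDS 17.

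Irf7, which amplifies type I interferon production once induced, stood at 45.0, 54.0, 50.0, 35.7 and 51.6 normalized counts in control pups 1, 18, 40, 52 and 69. The BDS pups 11, 17, 24, 38 and 59 stood at 56.9, 93.7, 68.2, 38.8 and 37.6. The BDS pups lay on both sides of the controls, 3 above all of them and 2 below all but control 52, whose raw count of 7 lay under the mean of 11.1 of its negative probes. The means of Irf7 were 59.1 ± 23.2 and 47.3 ± 7.27 (SD, n = 5; edgeR adjusted p = 0.509), and the log2 fold change was 0.06 without BDS 17, 0.13 with scaling without Sdha and 0.14 with lane depth as a covariate. Irf7 and Irf1 placed BDS 17, 11 and 24 in their top 3 pups, and each had control 52 as its lowest pup.

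Irf4, which lymphocytes and some macrophages use, gave 12 to 111 raw counts per lane and lay under the limit in control 18 and control 52. Its normalized counts were 35.0, 20.7, 31.5, 61.2 and 40.7 in control pups 1, 18, 40, 52 and 69, and the highest of them, in control 52, came from those 12 raw counts. They were 29.0, 50.1, 30.1, 57.5 and 35.5 in BDS pups 11, 17, 24, 38 and 59. The groups overlapped over nearly their whole range, with means of 40.4 ± 12.7 in BDS and 37.8 ± 15.0 in control pups (SD, n = 5; edgeR adjusted p = 0.683). Background subtraction moved the estimate for Irf4 from 0.21 to 0.82 on the log2 scale, lane depth as a covariate put it at 0.42, scaling without Sdha at 0.01, and the authors' deposited scores put it at -0.06 in limma, so its direction is not settled. The 10 B and plasma cell markers, a lineage in which Irf4 is abundant, took 0.253% to 0.472% of counts in control lanes and 0.320% to 0.426% in BDS lanes, and their part in the Irf4 values was not tested.

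**Figure D3:**
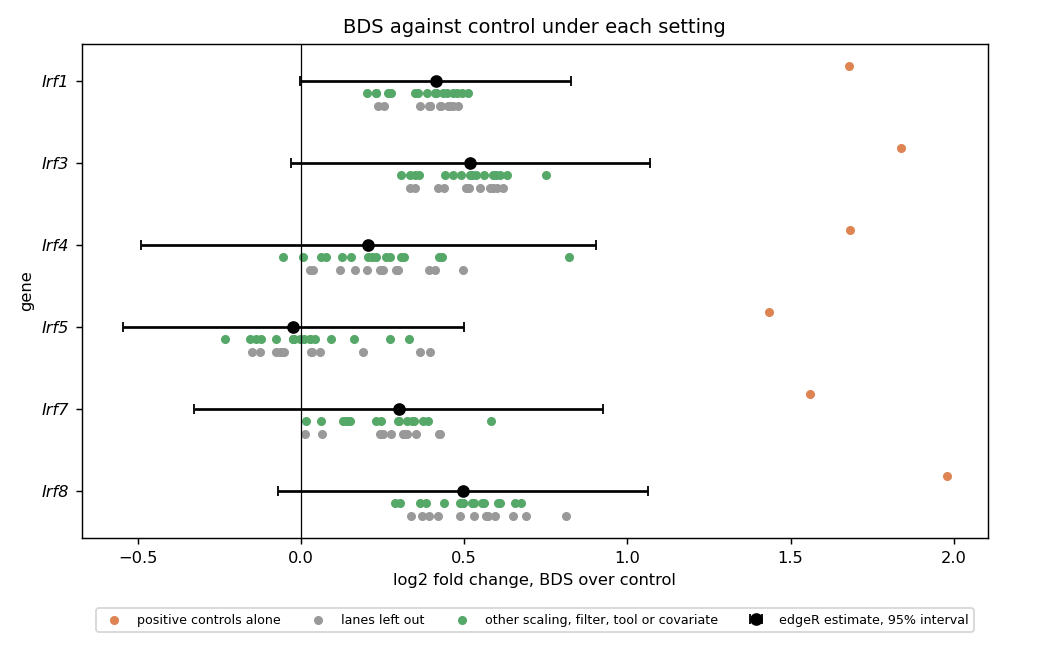
Log2 fold change, BDS over control (x axis), of each gene, as the edgeR estimate with its 95% interval (black) and under each alternative (dots, with lanes left out in grey, the positive controls alone as scaling in orange and all others in green). Irf5 lies on both sides of 0, from -0.23 to 0.39 without the orange dot, while Irf1, Irf3, Irf7 and Irf8 lie above 0 under every setting drawn.

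The authors' deposited table, whose scores appear to be scaled without Sdha, gave fold changes, BDS over control. They were 1.23 for Irf3, 1.20 for Irf8, 1.17 for Irf1, 1.10 for Irf7, 0.92 for Irf4 and 0.84 for Irf5. Its unadjusted p-values ran from 0.247 for Irf1 to 0.733 for Irf4. That table lists all 6 genes as above background in 100% of samples, whereas with each lane's own limit Irf3 and Irf7 were above it in 9 lanes and Irf4 in 8.

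The profiles nearest to each member over the 10 lanes were found from log2 normalized counts centred on each gene's mean, by the root mean square distance. Irf5 lay nearest to Tapbp, a chaperone of MHC class I loading, at a distance of 0.129 on the log2 scale, where the median distance to all other genes was 0.526. Irf8 lay nearest to Tgfbr1, a TGF-beta receptor chain, at 0.153, where the median was 0.567. Irf3 lay nearest to Stat2, a factor of type I interferon signalling, at 0.254, and Irf7 nearest to Irf1 at 0.237. Irf1 lay nearest to the interferon receptor kinase gene Tyk2 (0.220) and Irf4 to the transferrin receptor gene Tfrc (0.244). All lanes share the scaling and the range of depth, so these distances are descriptions.

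The kinases that act on IRFs had the highest median estimate of the gene lists. These lists were chosen with earlier results of these data known, so their counts and medians are descriptions, not tests. All 6 kinase genes listed (Tbk1, Ikbke, Chuk, Ikbkb, Irak1 and Irak4) were present and had higher estimates in BDS, with a median log2 fold change of 0.53. At an unadjusted edgeR p under 0.05, 4 of the 6 passed, all higher, against 19.4% of the 283 genes in that direction. Tbk1, the kinase of Irf3 and Irf7, was at 807 ± 134 normalized counts in BDS and 504 ± 77.5 in control pups (SD, n = 5), which is 0.68 ± 0.19 on the log2 scale (SE; adjusted p = 0.0647, edgeR). Its groups did not overlap, as in 4.59% of the 283 genes and in 0 of the 6 IRF genes. Chuk, also known as IKK-alpha, was at 0.68 ± 0.21 (edgeR adjusted p = 0.0875), Irak4 at 0.58 ± 0.20 and Irak1 at 0.47 ± 0.20, while Ikbke lay near the negative-control limit. Irak4 was at 0.30 with lane depth as a covariate. With lane depth as a covariate 3 of the 6 kinases had an unadjusted p under 0.05, all higher, and the median was 0.44. In that setting 26 of the 283 genes were higher and 10 lower at that bound, with a median of 0.15. With scaling without Sdha the kinase count was also 3, all higher, and the median 0.35. There 26 of the 283 genes were higher and 49 lower, with a median of -0.09.

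The sensors and adaptors upstream had values on both sides of 0. Of 12 on the panel 10 were present, with 4 higher and 1 lower at an unadjusted edgeR p under 0.05 (19.4% and 8.83% of the 283 genes) and a median of 0.36, or 0.11 with lane depth as a covariate. Of the 4 higher genes 2, Irak1 and Irak4, are the kinases already counted above. The RNA sensor Ifih1 was at 0.67 ± 0.28 and the lipopolysaccharide receptor Tlr4 at 0.47 ± 0.19, while the DNA receptor Tlr9 was at -0.41 ± 0.18 and the adaptor Myd88 at -0.54 ± 0.33 (SE, n = 5 per group). Myd88 had 0.22 with lane depth as a covariate, where 0 of these genes were higher and 1 lower at that bound. In that setting 26 of the 283 genes were higher and 10 lower. Tmem173, the STING adaptor, was above the limit in 0 lanes.

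Of the partner factors of IRFs in transcription, the Ikaros gene Ikzf1, a haematopoietic factor, was at 0.48 ± 0.18 on the log2 scale (SE, n = 5 per group; adjusted p = 0.127, edgeR). Its means were 1545 ± 275 normalized counts in BDS and 1109 ± 121 in control pups (SD, n = 5). Stat2, a factor of the complex that type I interferon receptors activate, was at 0.29 ± 0.22 (adjusted p = 0.383, edgeR), with means of 135 ± 31.8 and 110 ± 16.3. The estimate for Stat2 was 0.13 without BDS 17, 0.11 with scaling without Sdha and 0.48 after background subtraction.

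The interferons themselves were near background. Ifna1, Ifna2 and Ifnb1 were above the limit in 0 lanes and Ifng in 1. Of the 7 present receptor and JAK genes, 0 were higher and 1 lower at an unadjusted edgeR p under 0.05, against 19.4% and 8.83% of the 283 genes, with Ifnar1 at 0.37 ± 0.22 (0.03 with lane depth as a covariate), Ifnar2 at -0.28 ± 0.19 and Ifngr2 at 0.34 ± 0.18. The lower gene was the kinase gene Jak1 (-1.19 ± 0.53), which was at -0.27 without control 52 and at 0.30 with lane depth as a covariate.

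Interferon-induced genes did not share a direction. Of 13 present, 1 was higher and 2 lower at an unadjusted edgeR p under 0.05, against 19.4% and 8.83% of the 283 genes, and the median was 0.07, or -0.14 with scaling without Sdha. The chemokine gene Cxcl10, a target of Irf1 and Irf3, was at 1.09 ± 0.46, from 63.0 ± 43.7 normalized counts in BDS and 31.2 ± 9.60 in control pups (SD, n = 5), with 3 of 5 BDS pups above the control mean. Cxcl10 was at 0.71 without BDS 17 and at 1.72 after background subtraction. The GTPase gene Irgm1 was at -0.65 ± 0.26 and the peptide transporter gene Tap1 at -1.80 ± 0.60, the latter above the limit in 4 lanes. With lane depth as a covariate 0 of the 13 had an unadjusted p under 0.05, where 26 of the 283 genes were higher and 10 lower. Irgm1 was then at -0.13 and Tap1 at -0.31. Without control 52 and control 69 the count was 3 higher and 0 lower, where 70 and 17 of the 283 genes were, and the median was 0.42. Of 5 present macrophage targets, Ctss, a lysosomal protease gene, was at 0.48 ± 0.18 (0.25 with lane depth as a covariate), Il1b at 0.47 ± 0.27 and Tnf at -0.48 ± 0.31, and Il12b was above the limit in 1 lane.

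**Figure D4:**
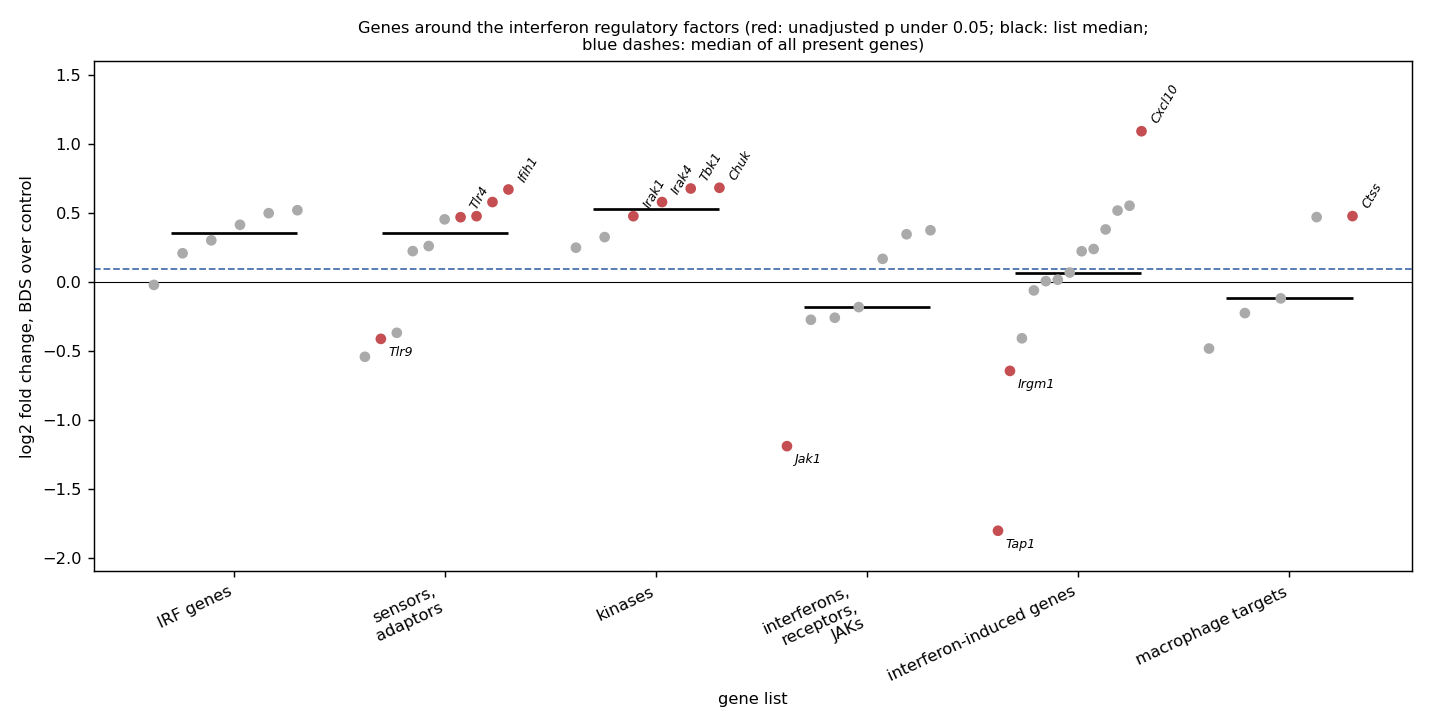
Log2 fold change, BDS over control (y axis), of each present gene in 6 lists around the interferon regulatory factors (x axis), with genes at an unadjusted edgeR p under 0.05 in red, list medians as black bars and the median of all 283 genes, 0.09, as a dashed line. The kinase list has the highest median, 0.53, and the IRF genes themselves, with a median of 0.36, include no red point.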

How the data were processed

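Microglia of 10 pups were isolated on a Percoll gradient, sorted by FACS and hybridized to the panel as amplified cDNA, per the labels' protocols. The deposited raw table holds barcode counts per probe, not normalized, per the file headers, and its counting software is not given in the sources used here. A second deposited table holds the authors' scores, normalized to positive controls and housekeeping genes and rounded, with a fold change (ratio of group means), an unadjusted p-value and the percent of samples above background.

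Here each lane's raw counts were divided by a factor from the geometric mean of 6 housekeeping genes (Gapdh, Tbp, Sdha, Alas1, Oaz1, Polr1b). The study's design text names these 6 but states a smaller number. The deposited scores fit scaling without Sdha, which is an inference from their values. A gene entered the tests when 4 or more of the 10 lanes exceeded the limit of negative-probe mean plus 2 SD, which kept 283 of 545. The test was the two-sided quasi-likelihood test of edgeR 4.0.16 in R 4.3.3, with no covariate and Benjamini-Hochberg adjustment over the 283 genes, and each SE is the estimate divided by the root of its F value. Log2 normalized values used a pseudocount of 1, and permutation tests ran all 252 assignments of lanes to groups. Alternatives included limma 3.58.1, DESeq2 1.42.0, other scalings, lane depth and each pup left out. Counts differed between every pair of lanes by more than sampling noise (chi-square per degree of freedom at least 22.8), and the fit was tested on simulated data.

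The members, gene lists, design and alternatives were chosen with earlier results of these data known. Named genes were the members, up to 4 present genes with the smallest p in each list, genes set by name (Tbk1, Ifnar1, Ifnar2, Myd88, Cxcl10), the housekeeping genes, markers and the 3 nearest profiles per member. Tmem173, Il12b, Ikbke, Ikbkb, Ifna1, Ifna2, Ifnb1 and Ifng were named after their values were seen, and the within-lane ratios and the fit without control 52, control 69 and BDS 17 were added after seeing the data. PU.1 was not analysed here, and some genes, with the counts of the partner factor list, are not reported here.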

Additional observations from a re-analysis of the deposited data

Results flagged for a closer look

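The spread within each group of 5 pups was examined for 30 named genes and 2 within-lane ratios, 64 group values in all. A pup was set apart where its gap to the nearest other pup was over 0.71 of the group's range on the log2 scale, which chance gives in about 1 of 20 groups. This found 6, and none was an IRF gene or an IRF ratio. BDS 11 was the low pup 3 times: Tlr9 stood at 1404 normalized counts there and at 1795 to 1908 in the other BDS pups. Irak4 stood at 322 in BDS 11 against 450 to 504, and Ifnar1 at 1347 against 1873 to 2122. Stat2 was high in BDS 17, at 192 against 116 to 127, and low in control 69, at 81.5 against 114 to 122. Ctss was high in BDS 38, at 35959 against 25758 to 27302.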

How the results depend on the processing

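Among the IRF genes, Irf1, Irf3, Irf7 and Irf8 kept a positive estimate under every alternative run. Irf5 had a positive estimate in 15 of 30 alternatives: 1.43 with positive controls alone (median of all genes 1.35), 0.16 with all 14 housekeeping genes, 0.027, 0.093 and 0.042 without Gapdh, Polr1b and Tbp, 0.0081 after background subtraction, 0.029 in limma, 0.27 with limma sample weights, 0.33 with lane depth, 0.39 without the 2 shallowest lanes and 0.36 without the deepest too. With each pup left out Irf5 ran from -0.15 to 0.19, positive without control 52 (0.19), control 69 (0.06), BDS 11 (0.03) or BDS 24 (0.03). Irf4 turned to -0.055 with the authors' scores. The log2 ratio of Irf4 over Irf8 turned from -0.36 to 0.51 after background subtraction. The cause was not tested. IRF genes called numbered 0 except 1, Irf3 (0.63), with limma sample weights. Panel genes called, 0 in edgeR with 80 at an unadjusted p under 0.05, numbered 14 with positive controls alone, 12 without Gapdh, 15 without Polr1b, 11 with counts above the limit in all lanes (fewer genes tested), 15 after background subtraction, 85 with limma sample weights and 26 with DESeq2. With each pup left out they numbered 0 to 48, with 48 without control 40 and 19 without BDS 11. No paired analysis was possible because the 2 groups share no pup numbers. Control 52, the shallowest lane, read Irf3, Irf4 and Irf7 under its limit, so their values there are bounded by background.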
